A study of Mus musculus with 12 samples.

Results

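The comparison described here asked whether the difference between *Rack7*-cKO and wild-type (WT) astrocyte cultures was another difference at postnatal day P8 than at P1. The unit was the gene. For each gene the P1 difference (cKO minus WT) was subtracted from the P8 difference on the log2 scale, and the result is called the change of the genotype effect. It drew on 8 of the 12 RNA-seq libraries, 2 for each of P1 WT, P1 cKO, P8 WT and P8 cKO, and the 4 P6 libraries entered the same fit and served as an intermediate day. The WT cultures came from hGFAP-cre::Rack7+/+ mice and the cKO cultures from hGFAP-cre::Rack7 fl/fl mice, so that both carried the Cre transgene, which a human GFAP promoter drives in neural stem cells of the dorsal forebrain from before birth. The conditional allele flanks exons 3 and 4 of *Rack7* (*Zmynd8*). The cells were primary astrocytes of postnatal brains freed of meninges, grown to confluence and shaken to detach microglia and oligodendrocytes. The day is the age of the mice at dissection, and the cells were then kept in culture. P1 and P8 libraries come from separate cultures, and a rise or fall between the days is a difference between them. The 2 libraries of a group are called biological replicates, with no litter or culture named, so the p-values below measure the spread between these libraries, which may be technical, and a feature of 1 culture and a feature of its group cannot be told apart.

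RACK7 is a chromatin reader that binds modified histone tails and assembles with lysine demethylases at promoters and enhancers, where it is known mainly as a brake on transcription. Astrocytes are born from the neural stem cells of the forebrain around birth and mature over the following weeks. They gain the channels and transporters that clear potassium, water and glutamate, and lose some progenitor factors of the stem cell. They, and the fibroblasts and microglia beside them, also lay down and remodel the extracellular matrix that carries growth factors to their receptors.

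Of 18903 genes in the table, 17938 had enough reads to be tested, and the genotype effect changed between P1 and P8 for 4606 of them, 25.7% (edgeR quasi-likelihood test, adjusted p under 0.05). The effect became more positive at P8 for 2511 genes (14.0%) and more negative for 2095 (11.7%). Counts of called members in the gene lists below are to be read beside these shares. The libraries of the genotypes did not overlap for 51.2% of tested genes at P1, 59.0% at P6 and 70.8% at P8. In 674 genes (3.76% of those tested) the effect reversed, which here means that both days passed the test with opposite signs. The reversal ran from higher to lower in the cKO for 425 genes (2.37%) and from lower to higher for 249 (1.39%). The effect grew, being called at P8 and of larger size there, in 3276 genes (18.3%), of which 2004 were higher in the cKO at P8 (11.2%) and 1272 lower (7.09%). It shrank, being called at P1 and of larger size there, in 341 genes (1.90%), 245 of them higher in the cKO at P1 (1.37%) and 96 lower (0.535%). For the remaining 315 (1.76%) neither day's own difference decided between these cases. Taken by itself, the P1 difference passed for 9.48% of tested genes (6.54% higher and 2.94% lower in cKO) and the P8 difference for 34.4% (19.6% higher and 14.8% lower).

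**Figure D1:**
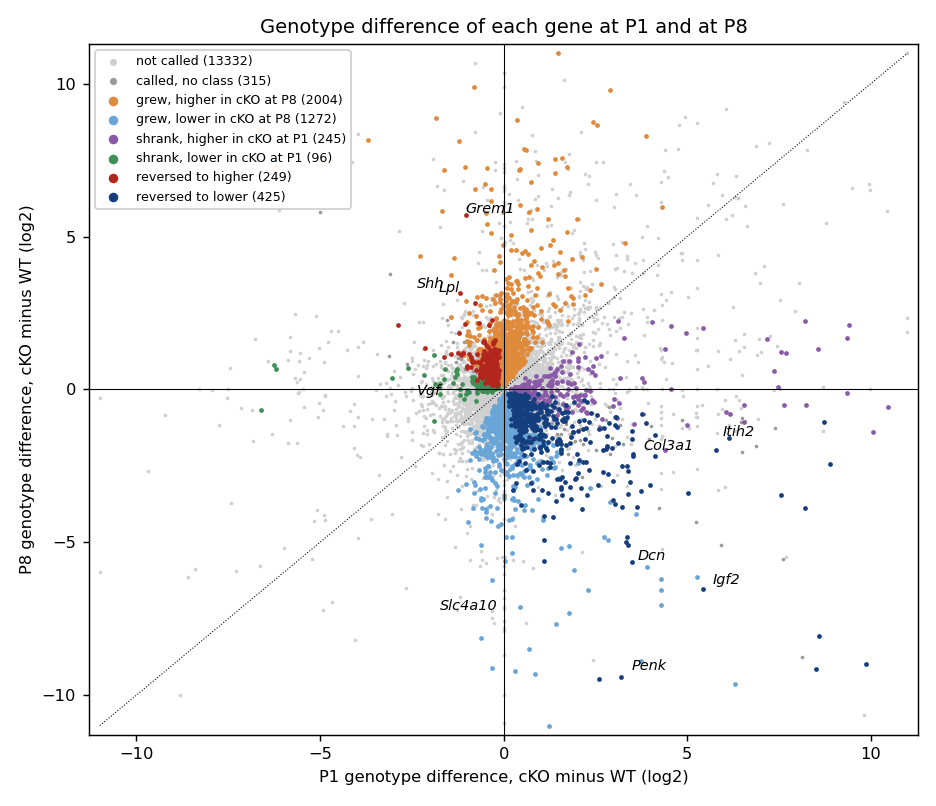
Each point is a gene; the x axis is its cKO minus WT difference at P1 and the y axis the same at P8, both on the log2 scale, with values beyond 11 drawn at 11. Points on the dotted diagonal did not change between the days. The dark blue points at lower right (425 genes, *Penk*, *Igf2* and *Dcn* among them) and the red points at upper left (249 genes, *Shh* and *Lpl* among them) reversed. Grey points are genes that were not called or were called without a class.

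By arithmetic, the change of the genotype effect is also the P1-to-P8 step in cKO cultures minus the step in WT cultures, and the steps describe how each genotype moved. Because the classes were set from the same libraries, a WT step above the cKO step in genes that reversed to lower follows from the choice, and these values are a description. The 425 genes that reversed to lower had a median WT step of 2.22 on the log2 scale, and 404 of them rose from P1 to P8 in WT at an edgeR adjusted p under 0.05. Their median cKO step was 0.44. In the 249 genes that reversed to higher the median WT step was -0.70 and the median cKO step 0.33. Among all 2095 genes with a more negative effect at P8, 1682 rose in WT, and among the 2511 with a more positive effect 1843 fell in WT. At P6, 257 of the genes that reversed to lower were already lower in the libraries labelled cKO (60.5%, against 12.5% of all tested genes) and 68 were higher. The genes that reversed to higher stood closer to their P1 side at P6, with 89 of 249 lower in the cKO (35.7%) and 51 higher. The P6 libraries had next to no reads of Y-linked genes, while the P1 and P8 libraries had them, and what this difference does to the P6 values was not tested.

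**Figure D2:**
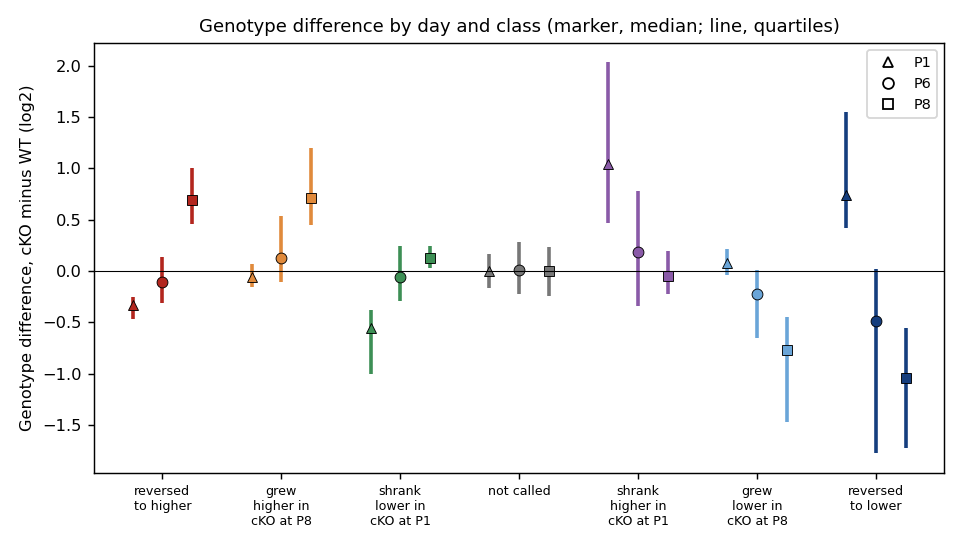
The x axis gives the 7 groups of genes and the y axis the cKO minus WT difference (log2); triangles, circles and squares are the medians at P1, P6 and P8 and lines the quartiles over genes. The genes that reversed to lower have a median of 0.74 at P1, -0.49 at P6 and -1.05 at P8, and those that were not called stay near 0 on all 3 days.

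Library totals ran from 54413504 to 89183250 counts, and the first principal component of the 8 libraries, with 61.8% of the variance, held P1 and P8 apart. *Zmynd8* itself was at 136 and 136 CPM (its reads scaled to the size of the library) in P1 WT and 213 and 216 in the P1 libraries labelled cKO, and at 100 and 104 against 160 and 171 at P8. It was higher, not lower, in the libraries labelled cKO on both days. A count over the whole gene does not isolate exons 3 and 4, so it cannot show whether these were deleted, and the labels could not be checked from it. The paper reports an immunoblot of RACK7 in primary astrocytes and far fewer RACK7 ChIP-seq peaks in cKO than in WT astrocytes. Its genotype effect did not pass the test for a change (0.05, SE 0.07, edgeR adjusted p = 0.676). Throughout, cKO therefore means the libraries labelled cKO, and every direction rests on those labels.

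The cultures also differed in the summed level of markers of other cells. The 22 leptomeningeal fibroblast and arachnoid markers summed to 544 and 566 CPM in P1 WT, 2863 and 2826 in P1 cKO, 33112 and 30989 in P8 WT and 8407 and 8654 in P8 cKO, and at P6 to 8222 and 8315 in WT and 2783 and 2614 in cKO. Of these 22 markers 20 were called (90.9%), all with a more negative effect at P8, and *Slc22a8* alone had a group with no reads. For the 19 microglia and macrophage markers the sums were 6796 and 6756 CPM in P1 WT, 5767 and 5721 in P1 cKO, 5836 and 5765 in P8 WT and 10512 and 10683 in P8 cKO, with none of them at 0 in any group. The 12 astrocyte markers summed to 2803 and 2877 CPM in P1 WT, 2700 and 2728 in P1 cKO, 2110 and 2500 in P8 WT and 1049 and 1062 in P8 cKO. In bulk RNA, fewer cells of a type and less RNA per cell cannot be told apart.

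**Figure D3:**
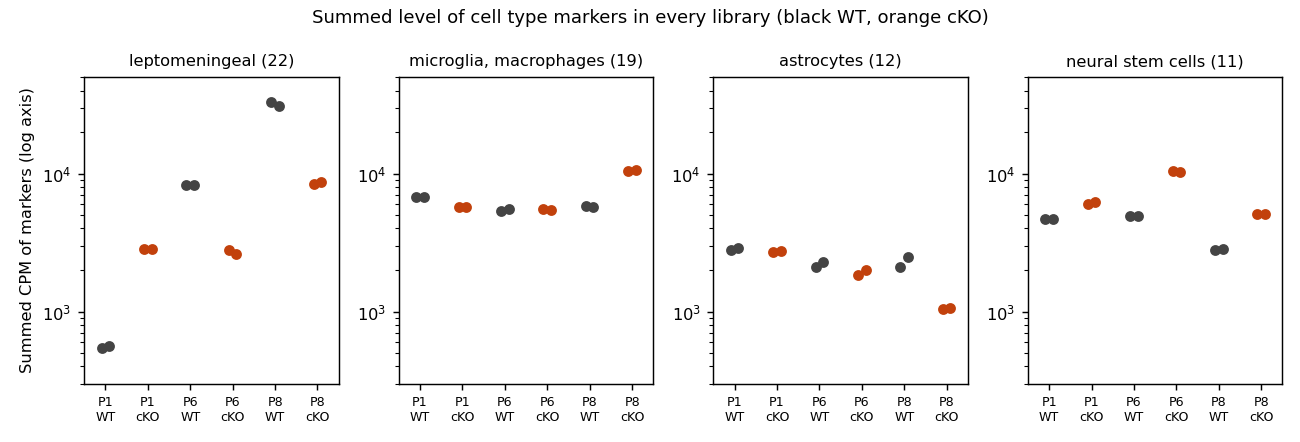
Summed CPM (y axis, log scale) of 4 marker lists in every library, by day and genotype; each point is 1 library. The leptomeningeal sum is highest in P8 WT (33112 and 30989) and higher in cKO than WT at P1 but not at P6 or P8, and the microglia sum is highest in P8 cKO.

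Many of the reversed genes encoded extracellular matrix. Fibrillar collagens give connective tissue its tensile strength. In a list of fibrillar and other collagens, 18 of the 22 measured members changed (81.8%, against 25.7% of all tested genes), each toward a more negative effect at P8. The median change of the 22 was -2.20 on the log2 scale, against 0.02 over all genes tested. In 11 of the 18 the effect reversed (*Col1a1*, *Col1a2*, *Col3a1*, *Col5a1*, *Col5a2*, *Col6a2*, *Col6a3*, *Col8a1*, *Col11a1*, *Col12a1* and *Col16a1*), in 5 it grew and in 2 it shrank (*Col2a1* and *Col5a3*). *Col3a1*, which encodes the collagen III chain of loose connective tissue (ENSMUSG00000026043, chr1:45311538-45349706, GRCm38), was at 33.8 and 30.8 CPM in P1 WT, 369 and 370 in P1 cKO, 4915 and 4966 in P8 WT and 1118 and 1170 in P8 cKO. Among these 4 groups it was lowest in P1 WT and highest in P8 WT, with the cKO libraries between, and at P6 it stood at 1212 and 1206 in WT against 22.8 and 25.9 in cKO. The genotype difference went from 3.52 at P1 to -2.11 at P8, a change of -5.63 (SE 0.09, edgeR adjusted p = 1.71e-09). *Col1a2*, a chain of collagen I (ENSMUSG00000029661, chr6:4504814-4541544), was at 74.8 and 74.3 CPM in P1 WT, 849 and 844 in P1 cKO, 9168 and 9307 in P8 WT and 2924 and 3055 in P8 cKO. *Col1a1*, the other collagen I chain, went from 233 and 249 CPM in P1 WT against 1087 and 1065 in P1 cKO to 9912 and 9529 against 3929 and 3990 at P8. The 2 collagen I chains so showed the same crossing, with changes of -5.13 (SE 0.05) and -3.45 (SE 0.06; edgeR adjusted p = 7.88e-11 and 5.96e-09).

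All 3 of these collagens are also in the leptomeningeal marker list, as are *Dcn*, *Lum*, *Ogn*, *Fbln1* and *Igf2* below; the part of those cells in the matrix result was not tested. Many matrix genes outside that list also became more negative at P8, and some, *Tnc*, *Prelp* and *Optc* among them, more positive. Which cells expressed these genes was not tested. *Thbs2*, which encodes thrombospondin 2, a secreted glycoprotein through which astrocytes promote synapse formation (ENSMUSG00000023885, chr17:14665500-14694235), was at 93.8 and 95.6 CPM in P1 WT, 295 and 308 in P1 cKO, 2717 and 2683 in P8 WT and 328 and 330 in P8 cKO. Its WT step was 4.83 and its cKO step 0.12, and the change of -4.71 (SE 0.05) had an edgeR adjusted p of 9.49e-11. In a list of genes with roles at synapses, not all of them synapse-forming, 16 of 24 changed (66.7%, against 25.7% of all tested genes). Of these, 10 became more negative and 6 more positive. *Thbs1*, *Thbs2*, *Thbs3*, *Mdk*, *Ptn* and *Sparc* reversed to lower and *Chrdl1* to higher. *Mdk*, the growth factor midkine, was at 6.40 and 7.95 CPM in P1 WT, 17.3 and 17.5 in P1 cKO, 97.6 and 132 in P8 WT and 17.6 and 22.1 in P8 cKO.

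Among small leucine-rich proteoglycans, which coat collagen fibrils and bind growth factors, 12 of 13 changed (92.3%), 10 of them toward a more negative effect, with a median of -2.68. *Dcn* (decorin, ENSMUSG00000019929, chr10:97479609-97518143) was at 9.12 and 8.55 CPM in P1 WT, 89.6 and 89.7 in P1 cKO, 1412 and 1480 in P8 WT and 45.7 and 44.7 in P8 cKO. Within WT it rose from P1 to P8 and within cKO it fell, and at P8 the genotypes were on opposite sides from P1. The change was -8.34 (SE 0.23, edgeR adjusted p = 2.73e-08). *Lum* (lumican), a neighbour of *Dcn* on chromosome 10, went from 0.520 and 0.995 against 8.87 and 7.35 CPM at P1 to 126 and 131 against 3.63 and 3.91 at P8. *Epyc* (epiphycan), of the same chromosomal cluster, had no read in P1 WT and 202 in P1 cKO, at least 82.0-fold higher when 3 counts over the group are taken as the floor, and at P8 was at 307 and 312 CPM in WT and 0.750 and 0.476 in cKO. *Bgn* (biglycan) crossed by less, from 138 and 131 against 646 and 654 CPM at P1 to 2670 and 2758 against 2042 and 2058 at P8. *Prelp* and *Optc* were the 2 members whose effect became more positive.

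The elastic fibre and fibronectin list had 22 of 23 members called (95.7%), 19 of them more negative. *Fbn2*, a fibrillin of embryonic microfibrils, was at 5.05 and 4.93 CPM in P1 WT, 16.4 and 13.5 in P1 cKO, 537 and 521 in P8 WT and 71.8 and 73.0 in P8 cKO, a change of -4.45 (SE 0.13, edgeR adjusted p = 2.81e-08). *Fbln1* (fibulin 1) had a like change of -4.47 (SE 0.13, edgeR adjusted p = 3.22e-08). *Fn1* (fibronectin) belonged to the 5 members whose P1 excess in cKO shrank: 1993 and 1784 against 3205 and 2937 CPM at P1, and 8425 and 8539 against 8868 and 9079 at P8. Of 22 basement membrane genes 17 changed (77.3%), 13 more negative and 4 more positive, *Col4a3*, *Col4a6* and *Lama5* among the latter. *Nid1* (nidogen, which links laminin to collagen IV) went from 43.5 and 41.5 against 134 and 130 CPM at P1 to 974 and 987 against 490 and 491 at P8, and *Col4a2* from 113 and 116 against 382 and 384 to 1388 and 1372 against 821 and 827. *Sparc*, a matricellular protein abundant in every group, changed by -0.94 (SE 0.05, edgeR adjusted p = 1.98e-06).

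Matrix proteases and their inhibitors followed the matrix genes in 19 of 21 changed members of 33. *Mmp2*, gelatinase A, was at 26.8 and 27.1 CPM in P1 WT, 166 and 162 in P1 cKO, 593 and 581 in P8 WT and 241 and 241 in P8 cKO, a change of -3.89 (SE 0.08, edgeR adjusted p = 7.79e-09). The exceptions were *Timp2* and *Mmp12*. *Mmp12*, the macrophage elastase, was at 8.30 and 5.97 against 18.0 and 18.2 CPM at P1 and at 4.2 and 6.57 against 149 and 174 at P8, so its cKO excess grew by 3.55 (SE 0.30, edgeR adjusted p = 2.68e-05). Of the lecticans, tenascins and hyaluronan genes, 8 of 14 changed, among them *Vcan* (versican, -2.30, SE 0.15) and *Bcan* (brevican, the lectican of neural matrix, -1.71, SE 0.31; edgeR adjusted p = 4.37e-06 and 2.86e-03). *Tnc*, tenascin C of the stem cell niche, went the other way: 1131 and 1132 against 2152 and 2149 CPM at P1, and 514 and 538 against 2153 and 2180 at P8. The cKO level of *Tnc* was alike on both days while the WT level was lower at P8.

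The sequences just upstream of some of these genes are given for comparison, because members that crossed together may be read beside members that moved the other way. Each run is the 250 bases before the RefSeq start of the gene on GRCm38.p6, on the gene's own strand, and capitals mark motifs found on either strand. The motifs searched were the TATA element (spelled TATAAA), the CCAAT element, the GC box that SP1 binds (spelled GGGCGG) and the AP-1 site that FOS and JUN bind (spelled TGANTCA), which had no match in these 5 runs. The collagen genes *Col1a2* (chr6:4505368-4505617, plus strand) and *Col3a1* (chr1:45311288-45311537, plus strand) and *Thbs2* (chr17:14694263-14694512, minus strand) reversed to lower. *Grem1* (chr2:113758649-113758898, minus strand) and *C1qc* (chr4:136892915-136893164, minus strand) became higher in cKO at P8.
Col1a2: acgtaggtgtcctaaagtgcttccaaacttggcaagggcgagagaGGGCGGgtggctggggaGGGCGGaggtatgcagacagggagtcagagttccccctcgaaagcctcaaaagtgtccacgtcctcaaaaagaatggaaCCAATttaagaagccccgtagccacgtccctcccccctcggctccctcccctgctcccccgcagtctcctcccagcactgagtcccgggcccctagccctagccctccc
Col3a1: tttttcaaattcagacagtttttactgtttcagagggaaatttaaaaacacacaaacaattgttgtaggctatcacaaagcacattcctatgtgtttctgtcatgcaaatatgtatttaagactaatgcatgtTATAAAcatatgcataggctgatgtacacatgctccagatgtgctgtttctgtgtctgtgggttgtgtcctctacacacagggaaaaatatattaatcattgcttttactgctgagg
Thbs2: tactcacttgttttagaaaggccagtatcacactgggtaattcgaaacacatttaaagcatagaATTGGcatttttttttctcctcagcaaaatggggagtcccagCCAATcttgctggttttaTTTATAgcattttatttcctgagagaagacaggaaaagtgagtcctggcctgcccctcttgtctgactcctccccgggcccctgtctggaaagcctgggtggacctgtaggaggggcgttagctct
Grem1: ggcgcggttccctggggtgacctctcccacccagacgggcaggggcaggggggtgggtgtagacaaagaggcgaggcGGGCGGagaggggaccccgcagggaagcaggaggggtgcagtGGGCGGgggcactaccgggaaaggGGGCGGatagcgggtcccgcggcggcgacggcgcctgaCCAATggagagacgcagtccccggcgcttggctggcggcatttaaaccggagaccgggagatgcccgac
C1qc: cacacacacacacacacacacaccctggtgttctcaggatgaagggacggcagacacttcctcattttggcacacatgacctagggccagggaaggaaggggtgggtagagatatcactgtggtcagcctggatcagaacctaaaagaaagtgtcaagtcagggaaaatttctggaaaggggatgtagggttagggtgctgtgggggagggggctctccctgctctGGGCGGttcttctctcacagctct
*Col1a2* had 1 CCAAT element and 2 GC boxes, *Col3a1* 1 TATA element, *Thbs2* 1 TATA and 2 CCAAT elements, *Grem1* 1 CCAAT element and 3 GC boxes and *C1qc* 1 GC box. Over the 11548 tested genes with such a sequence, 6.85% held the TATA element, 36.5% the CCAAT element, 56.7% the GC box and 4.79% the AP-1 site. Among the 295 genes that reversed to lower the shares were 8.81%, 34.9%, 60.0% and 4.41%, and among the 194 that reversed to higher 6.70%, 34.0%, 54.1% and 5.67%. No motif was held by all 3 of the genes that crossed to lower, and the shares in both reversed classes lay within 4 percentage points of those of all genes.

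Secreted signals included the largest reversals among genes of at least 5 CPM on average and 10 counts in every group. *Penk* encodes proenkephalin, the precursor of the enkephalin opioid peptides, and is known to be made by astrocytes as well as neurons (ENSMUSG00000045573, chr4:4133531-4138819). It was at 0.469 and 0.614 CPM in P1 WT, 4.51 and 5.55 in P1 cKO, 289 and 318 in P8 WT and 0.396 and 0.487 in P8 cKO. It was high in no group but P8 WT. The difference went from 3.19 to -9.41, a change of -12.60 (SE 0.31, edgeR adjusted p = 1.29e-08). *Igf2*, insulin-like growth factor 2 (ENSMUSG00000048583, chr7:142650766-142666816), was at 0.603 and 9.81 CPM in P1 WT, 233 and 235 in P1 cKO, 5075 and 3058 in P8 WT and 46.8 and 41.2 in P8 cKO. The WT libraries of a day differed widely between themselves, yet the genotypes did not overlap on either day, and the change of -11.97 (SE 1.16) had an edgeR adjusted p of 6.64e-05. *Igfbp6*, a binding protein that prefers IGF2, crossed with it, from 0.453 and 0.283 against 6.00 and 5.46 CPM at P1 to 45.5 and 48.1 against 5.66 and 5.11 at P8. In the IGF axis 12 of 18 genes changed, 8 more negative; *Igf1*, *Igfbp3* and *Stc1* grew higher in cKO and *Irs2* reversed to higher.

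**Figure D4:**
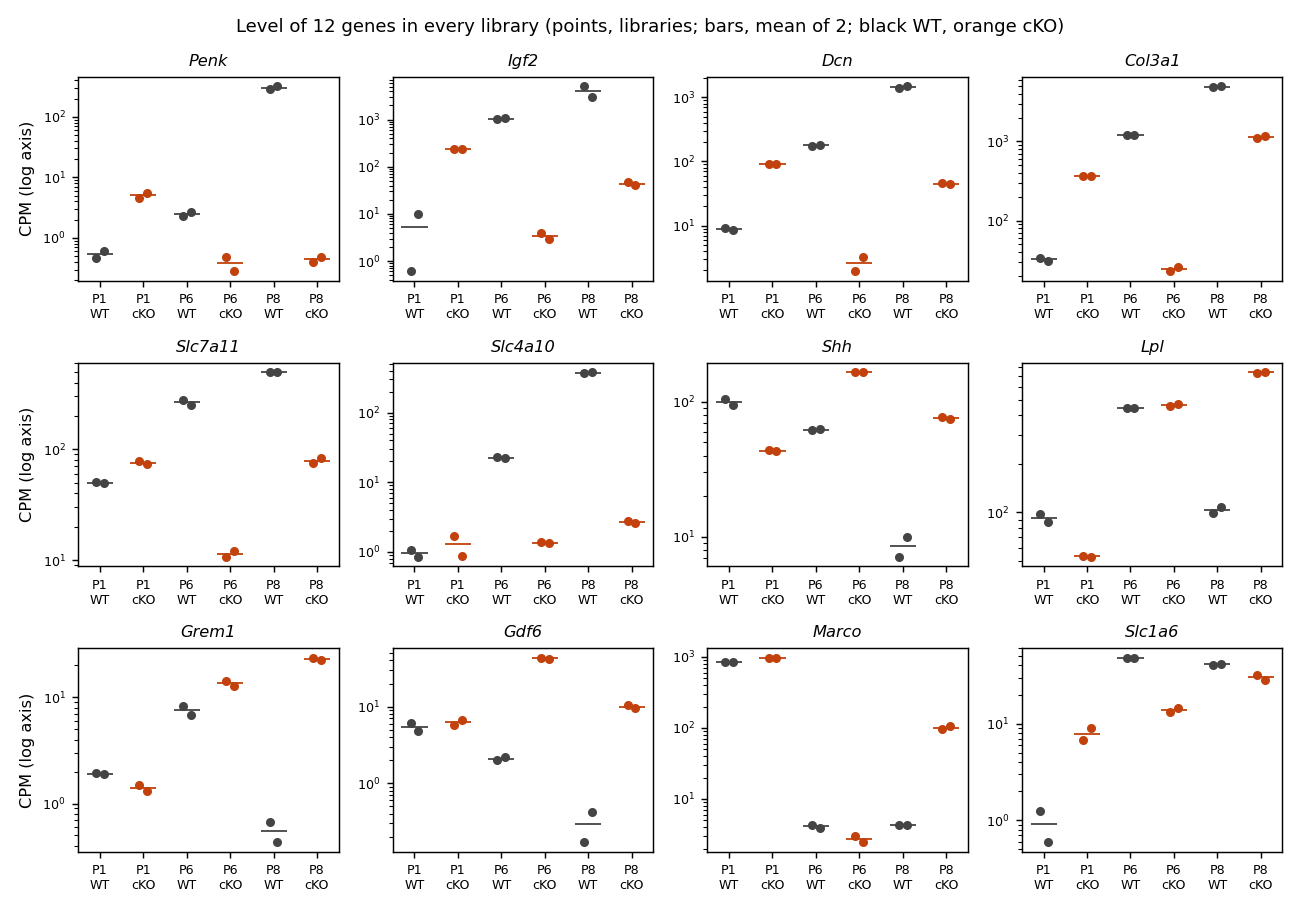
CPM (y axis, log scale) of 12 genes in each of the 12 libraries, by day and genotype; points are libraries and bars the mean of 2. The upper 6 genes become lower in cKO than in WT by P8 (*Penk*, 289 and 318 in P8 WT against 0.396 and 0.487 in P8 cKO); *Shh*, *Lpl*, *Grem1*, *Gdf6* and *Marco* become higher, and the P1 excess of *Slc1a6* in cKO is largely gone at P8.

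Genes of the Wnt pathway are given by role. Of 14 ligands 4 changed (28.6%, near the 25.7% of all tested genes). *Wnt2* reversed to lower (0.134 and 0.332 against 1.73 and 2.33 CPM at P1, 5.52 and 7.49 against 3.63 and 3.30 at P8) and *Wnt7a*, a ligand of the neuroepithelium, became lower in cKO (11.6 and 10.2 against 11.4 and 14.1 at P1, 1.46 and 1.84 against 0.368 and 0.594 at P8). *Wnt2b* became higher in cKO, at 2.14 and 2.42 against 10.9 and 11.1 CPM at P8. *Wnt3* had no read in P8 WT and 44 in P8 cKO, at least 12.3-fold higher over the floor of 3 counts, and its call rests on few reads. With the 8 libraries of P1 and P8 alone its edgeR adjusted p was 0.0534, and it also lost its call without P1 WT replicate 2, P1 cKO replicate 2, either P8 WT library or P8 cKO replicate 2 (0.0567 to 0.0924). *Wnt5a*, with the most reads, was not called (-0.28, SE 0.16, edgeR adjusted p = 0.257). Receptors and R-spondins changed in 1 direction only, 11 of 21 (52.4%) more negative, with 6 reversals (*Fzd1*, *Fzd2*, *Fzd6*, *Fzd7*, *Ror2* and *Rspo3*). *Ror2*, a receptor of non-canonical Wnt signals, went from 1.59 and 1.84 against 5.51 and 7.02 CPM to 34.3 and 34.1 against 15.0 and 15.1. *Lrp6*, a co-receptor, was alike at P1 (171 and 165 against 175 and 178 CPM) and at P8 stood at 410 and 423 against 213 and 206. Secreted antagonists changed in 7 of 10; *Sfrp4* went from 2.63 and 2.40 against 5.39 and 5.28 CPM to 56.3 and 59.1 against 3.23 and 3.30, a change of -5.23 (SE 0.19, edgeR adjusted p = 1.22e-07). Of 14 canonical target genes 8 changed, 6 more negative, and *Axin2*, *Sp5* and *Tcf7* were among the 6 not called.

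Of the BMP and TGF-beta ligands 10 of 16 changed, 6 more positive and 4 more negative. *Gdf6* (ENSMUSG00000051279, chr4:9844372-9862345) was at 6.02 and 4.74 CPM in P1 WT, 5.71 and 6.72 in P1 cKO, 0.168 and 0.416 in P8 WT and 10.4 and 9.63 in P8 cKO. *Gdf10*, a related ligand, mirrored it: 2.63 and 2.46 against 2.87 and 3.12 CPM at P1, and 65.7 and 71.6 against 2.28 and 2.51 at P8. Neither passed the test for a difference at P1 and both differed widely at P8, with changes of 4.84 (SE 0.37) and -5.08 (SE 0.16; edgeR adjusted p = 1.31e-05 and 4.74e-08). *Grem1*, which encodes the BMP antagonist gremlin 1 (ENSMUSG00000074934, chr2:113746164-113758646), had the largest growth toward higher among genes that met the same minimum. It stood at 1.94 and 1.88 CPM in P1 WT, 1.48 and 1.32 in P1 cKO, 0.673 and 0.429 in P8 WT and 23.8 and 22.5 in P8 cKO, a change of 5.85 (SE 0.27, edgeR adjusted p = 5.89e-07). *Tgfbr3*, a co-receptor, reversed to lower (-2.47, SE 0.15, edgeR adjusted p = 2.62e-06).

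*Shh*, the hedgehog ligand (ENSMUSG00000002633, chr5:28456815-28467256), was the largest reversal toward higher under the same minimum. Its levels were 104 and 94.9 CPM in P1 WT, 44.1 and 42.8 in P1 cKO, 7.11 and 9.93 in P8 WT and 76.6 and 73.9 in P8 cKO. In WT the transcript was far lower at P8 than at P1, and in cKO it was not. The change was 4.33 (SE 0.18, edgeR adjusted p = 2.90e-07). Of 13 hedgehog genes 9 were called (69.2%, against 25.7% of all tested genes), and those other than *Shh* moved the opposite way. In 8 of 13 the effect became more negative, and *Gli1*, *Gli2*, *Ptch1*, *Smo*, *Gas1*, *Cdon* and *Disp1* did not pass the test at P1 (edgeR adjusted p of 0.232 to 0.789) and were lower in cKO at P8. *Gli2*, a transcription factor of the pathway, was at 9.74 and 12.1 against 14.9 and 12 CPM at P1 and at 31.3 and 31.4 against 8.93 and 8.73 at P8. *Ptch1*, the receptor and itself a target of the pathway, was at 108 and 116 against 102 and 99.2 CPM at P1 and 147 and 151 against 66.1 and 65.8 at P8 (change -1.02, SE 0.10, edgeR adjusted p = 5.75e-05). The ligand and its target so changed in opposite directions.

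Smaller signal families had members of either direction. *Fgf7*, a fibroblast-derived growth factor, reversed to lower, with a difference of 2.95 at P1 and -1.91 at P8, while 7 of the 10 called FGF genes of 23 became more positive, *Spry2*, *Spred1*, *Dusp6* and *Etv5* among them. Retinoic acid genes changed in 13 of 18. *Rarb*, a receptor, went from 4.59 and 5.21 against 12 and 10.5 CPM to 21.1 and 21.7 against 2.54 and 1.58, and *Crabp1*, a carrier of retinoic acid, from 3.50 and 3.69 against 5.71 and 5.67 to 0.639 and 0.983 against 17.2 and 18.4. *Rarb* and *Crabp1* so moved in opposite directions. Axon guidance genes changed in 37 of 52 (71.2%), 24 more negative and 13 more positive. *Efnb3* (ephrin B3) was at 12.7 and 12.9 against 1.06 and 0.796 CPM at P8 and *Sema3d* at 94.8 and 93.5 against 22.8 and 20.9, and *Nrp2*, a semaphorin receptor, at 337 and 354 against 598 and 601. *Edn1* (endothelin 1) grew higher in cKO, from 8.18 and 8.93 against 11.9 and 9.79 CPM to 0.706 and 0.706 against 7.86 and 8.65.

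Genes of mature astrocyte function lost ground in cKO at P8. Of 27 genes for glutamate uptake and astrocyte homeostasis 18 changed (66.7%) and 16 of these were more negative, with a median change of -0.69. *Aqp4*, the water channel of astrocyte endfeet (ENSMUSG00000024411, chr18:15389496-15410982), was at 773 and 786 CPM in P1 WT, 564 and 562 in P1 cKO, 443 and 451 in P8 WT and 113 and 109 in P8 cKO. The cKO was lower on both days and the deficit grew from -0.47 to -2.01 (change -1.54, SE 0.10, edgeR adjusted p = 4.81e-06). *Kcnj10*, the inward rectifier through which astrocytes take up potassium, was close at P1 (230 and 248 against 213 and 210 CPM) and lower at P8 (114 and 110 against 37.2 and 33.8). *Slc7a11*, the cystine-glutamate exchanger (ENSMUSG00000027737, chr3:49892526-50443614), was at 50.2 and 49.3 CPM in P1 WT, 78.6 and 72.9 in P1 cKO, 495 and 498 in P8 WT and 74.7 and 83.7 in P8 cKO. It rose in WT and did not pass the test for a step in cKO (0.06, SE 0.08, edgeR adjusted p = 0.58), and its effect reversed by -3.26 (SE 0.12, edgeR adjusted p = 1.18e-07).

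*Gfap*, the intermediate filament of astrocytes, reversed: 390 and 402 against 578 and 559 CPM at P1, and 372 and 384 against 184 and 176 at P8. The WT level was alike on both days. *Gja1* (connexin 43) was at 132 and 91.4 against 154 and 151 CPM at P1 and at 360 and 712 against 113 and 120 at P8, with WT libraries that differed from each other but not so far as to meet the cKO. *Glul* (glutamine synthetase) changed little, by -0.38 (SE 0.07, edgeR adjusted p = 3.48e-03). *Gjb2*, connexin 26, crossed from 0.905 and 0.676 against 6.89 and 6.42 CPM to 8.22 and 7.67 against 3.85 and 2.92. In the homeostasis list the exceptions were *Glud1*, glutamate dehydrogenase, which reversed to higher, and *Fabp5*, a fatty acid carrier, whose cKO excess grew. Of the 12 astrocyte markers 10 were called (83.3%), 9 of them more negative. *Aldh1l1* reversed to higher, and *Slc1a2* and *Fgfr3* were not called. *Slc4a10*, a sodium-driven bicarbonate transporter that regulates cell pH (ENSMUSG00000026904, chr2:62046462-62326730), showed the largest growth toward lower among genes that met the minimum: 1.06 and 0.848 against 1.68 and 0.878 CPM at P1, where the groups overlapped, and 365 and 382 against 2.80 and 2.60 at P8. Its change was -7.56 (SE 0.32, edgeR adjusted p = 3.35e-07), and at P6 it stood between, at 23 and 21.9 against 1.37 and 1.34.

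Progenitor and regional transcription factors moved the other way. Of 47 homeobox and patterning factors 30 changed (63.8%), 22 more positive and 8 more negative, and all 22 of the former grew higher in cKO at P8. They include forebrain factors (*Lhx2*, *Emx2*, *Otx1*, *Dmrta2*), factors of various neural tube regions (*Nkx2-1*, *Nkx2-2*, *Pax2*, *Pax3*, *Pax7*, *Pax8*) and Hox genes of the hindbrain and cord (*Hoxb3*, *Hoxb4*, *Hoxc4*, *Hoxc5*, *Hoxd8*), so they do not name 1 region. *Hoxc4* was at 0.168 and 0.541 against 0.374 and 0.140 CPM at P1 and at 0.135 and 0 against 3.51 and 3.67 at P8; without P1 WT replicate 2 its edgeR adjusted p was 0.0711 and without P1 cKO replicate 2 it was 0.0529. The 8 of the other direction included *Six2*, *Msx1*, *En2*, *Zic1*, *Zic2*, *Zic4* and *Zic5*. *Six2*, a factor of mesenchyme, went from 0 and 0.369 against 2.36 and 1.97 CPM to 58.7 and 54.3 against 7.33 and 10.2, and *Zic1* from 37.6 and 33.1 against 48.6 and 45.5 to 256 and 265 against 90.9 and 88.3.

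Among 11 neural stem cell markers 6 became more positive (*Nes*, *Vim*, *Sox2*, *Pax6*, *Tnc* and *Hopx*). *Nes*, the intermediate filament nestin, was at 864 and 856 CPM in P1 WT, 1030 and 997 in P1 cKO, 152 and 142 in P8 WT and 494 and 504 in P8 cKO. Both genotypes fell between the days and WT fell further (change 1.53, SE 0.06, edgeR adjusted p = 1.61e-07). *Vim* was at 2265 and 2236 against 2415 and 2686 CPM at P1 and at 1110 and 1111 against 2135 and 2143 at P8. *Egfr*, the EGF receptor of activated progenitors (ENSMUSG00000020122, chr11:16752203-16918158), was an exception: 50.7 and 51.2 against 62.5 and 66.4 CPM at P1, and 903 and 930 against 109 and 110 at P8, a reversal of -3.41 (SE 0.08, edgeR adjusted p = 1.07e-08). *Prom1* was the other. In the list of glial transcription factors 14 of 25 changed, 10 more positive (*Sox2*, *Sox6*, *Sox8*, *Sox11*, *Sox21*, *Pax6*, *Emx2*, *Lhx2*, *Otx1* and *Atf3*) and 4 more negative (*Sox4*, *Sox9*, *Sox10* and *Id3*; *Sox10* lost its call without any 1 of 5 libraries, with edgeR adjusted p of 0.0525 to 0.0975), while *Nfia*, *Nfib* and *Nfix*, which drive astrocyte identity, were not called. *Ccnd1* (cyclin D1), close at P1 (971 and 978 against 1056 and 1036 CPM), was at 629 and 636 against 1848 and 1823 at P8.

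Immune lists differed in how many members changed and in which direction. Of 19 microglia and macrophage markers 15 changed (78.9%), 14 more positive, and 8 reversed to higher, among them *Aif1*, *C1qa*, *C1qc*, *Csf1r*, *Fcer1g*, *Spi1* and *Trem2*. *C1qa*, a chain of the complement starter C1q (ENSMUSG00000036887, chr4:136895917-136898803), was at 1083 and 1084 CPM in P1 WT, 927 and 967 in P1 cKO, 609 and 571 in P8 WT and 1403 and 1420 in P8 cKO. *C1qc* followed at 891 and 917 against 807 and 789 CPM and then 544 and 507 against 1252 and 1247. Slightly lower in cKO at P1, both were more than doubled at P8, with changes of 1.45 (SE 0.07) and 1.43 (SE 0.06; edgeR adjusted p = 9.07e-07 and 3.61e-07). *Tmem119*, a marker of resident microglia, was the member that became more negative, and *P2ry12*, *Mrc1*, *Itgam* and *Pf4* were not called. The part of the number of microglia in these values was not tested.

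Other genes that macrophages are known to express, *Lpl*, *Marco*, *Itgax*, *Hmox1* and *Ctss*, also became more positive. *Lpl*, lipoprotein lipase, which microglia express around myelin and in disease (ENSMUSG00000015568, chr8:68880491-68907448), was at 97.1 and 86.9 CPM in P1 WT, 53.7 and 52.9 in P1 cKO, 99.1 and 108 in P8 WT and 730 and 741 in P8 cKO. Here the WT level was similar on both days and the cKO level rose, while at P6 both genotypes stood at 442 to 472 CPM, and the effect reversed by 3.62 (SE 0.08, edgeR adjusted p = 9.91e-09). *Marco*, a scavenger receptor of macrophages (ENSMUSG00000026390, chr1:120474538-120505024), was at 840 and 846 CPM in P1 WT, 981 and 971 in P1 cKO, 4.25 and 4.36 in P8 WT and 96.1 and 106 in P8 cKO. It was abundant at P1 in either genotype and low in WT at P8, and at P6 it was low in both (4.29 and 3.96 against 3.0 and 2.44 CPM). Its change was 4.34 (SE 0.11, edgeR adjusted p = 1.82e-08). *Itgax*, the CD11c integrin, was at 0.605 and 0.748 against 8.83 and 9.50 CPM at P8, but without P8 WT replicate 1 its change had an edgeR adjusted p of 0.0525. *Hmox1*, heme oxygenase, went from 713 and 734 against 867 and 881 CPM to 327 and 312 against 1153 and 1172, and *Ctss*, the protease cathepsin S, from 981 and 975 against 845 and 840 to 773 and 743 against 1362 and 1363.

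Complement genes split. Of 21 measured, 18 changed (85.7%): *C1qa*, *C1qb*, *C1qc*, the receptors *C3ar1* and *C5ar1*, *Cfp*, *Clu*, *Colec12* and *Masp1* became more positive, and the C1 proteases *C1ra* and *C1s1* with *C4b*, *Cfb* and the C1 inhibitor *Serping1* were among those that became more negative; *C3*, *C4a* and *Cfi* changed without either day's difference deciding the kind, and *Cfi* lost its call without any 1 of the 8 libraries (edgeR adjusted p of 0.085 to 0.123). *C1s1* went from 32.2 and 30.9 against 49.8 and 49.0 CPM to 135 and 136 against 41.8 and 41.8 (change -2.35, SE 0.10, edgeR adjusted p = 2.82e-07). The C1q chains and the protease that they activate so changed in opposite directions. Chemokines and interleukins changed in 21 of 36 (58.3%), 17 more positive; 16 of these grew, *Ccl2*, *Ccl3*, *Ccl4*, *Ccl5*, *Ccl7*, *Cxcl10*, *Il6* and *Tnf* among them. *Csf1*, the growth factor of microglia, was at 625 and 620 against 807 and 801 CPM at P1 and 274 and 273 against 565 and 584 at P8. *Cxcl12* was the marked exception: 8.75 and 8.18 against 32.3 and 18.1 CPM at P1, and 428 and 443 against 47.7 and 47.3 at P8, a reversal of -4.77 (SE 0.51, edgeR adjusted p = 1.15e-04).

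Of 44 interferon-stimulated genes 8 were called (18.2%, against 25.7% of all genes). *Oas3* differed between the 2 P8 WT libraries, at 28.0 and 13.7 CPM, against 72.6 and 71.8 in P8 cKO, and its call (edgeR adjusted p = 0.0285) was lost without any 1 of 7 libraries (0.0639 to 0.085). Of 21 antigen presentation genes 9 changed (42.9%), 7 more positive and 2 more negative. The class I genes *B2m*, *H2-D1* and *H2-K1* grew higher in cKO, while *H2-Q4*, *H2-Q6*, *H2-Q7*, *H2-T22*, *H2-T23* and *H2-M3* were not called. *H2-Eb1*, of class II, had the most negative change (-3.93) and grew lower, as did *Pdia3*. *B2m* went from 3237 and 3272 against 3040 and 3028 CPM to 1594 and 1623 against 2576 and 2597.

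**Figure D5:**
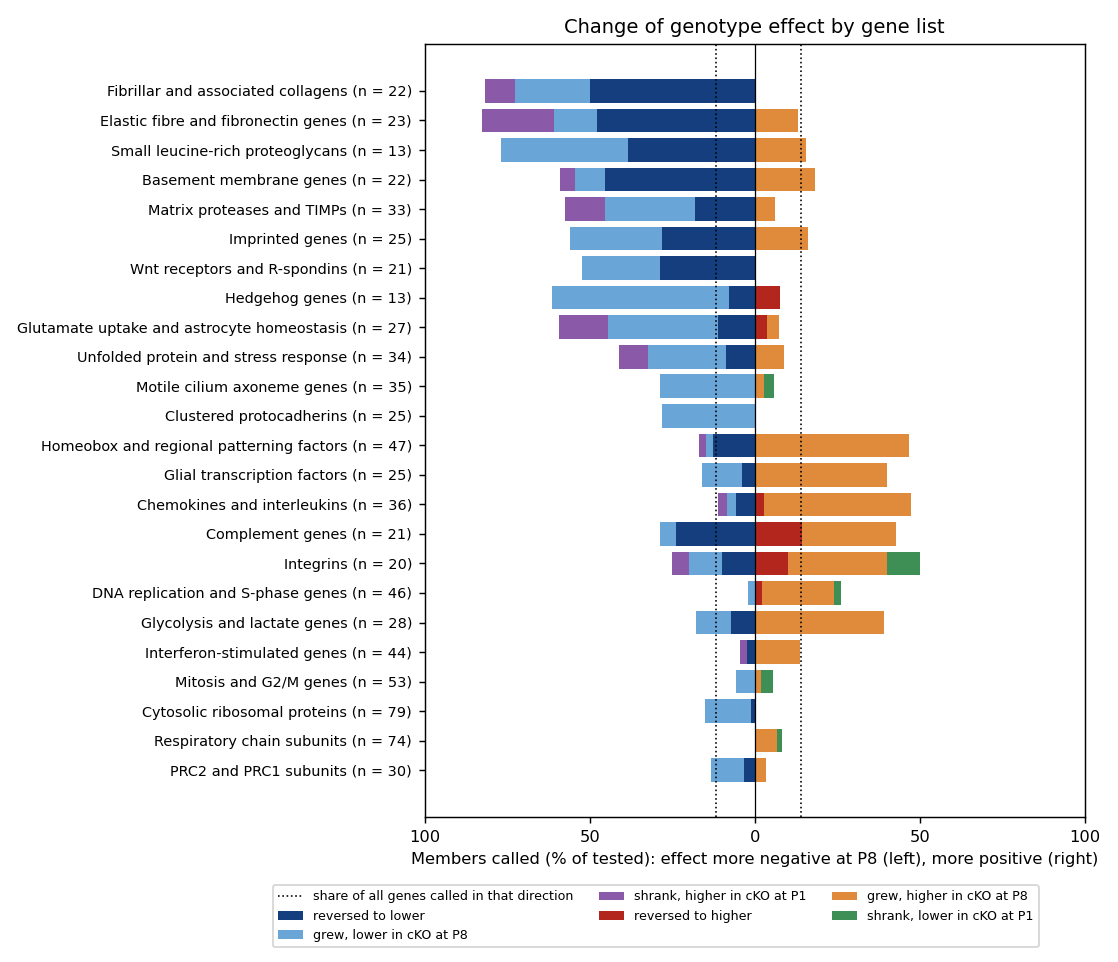
Share of the tested members of 24 gene lists (n in brackets) that were called, split by class; bars to the left are members with a more negative genotype effect at P8, bars to the right members with a more positive one, and dotted lines the shares of all tested genes (11.7% and 14.0%). Members called without a class are not drawn. Matrix lists extend to the left and patterning, chemokine and glycolysis lists to the right, and ribosomal, respiratory and Polycomb lists stay near or under the dotted lines.

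Imprinted genes are expressed from 1 parental allele, some of them only in certain tissues, and many regulate growth. They changed in 18 of 25 (72.0%), with 14 more negative and a median of -1.65. Counts per gene do not separate the alleles, so imprinting in these cells was not tested. Reversed to lower were *Igf2*, *H19*, *Dcn*, *Grb10*, *Igf2r*, *Peg3* and *Rian*, and *Airn*, *Cdkn1c*, *Gnas*, *Meg3*, *Mirg*, *Plagl1* and *Zim1* grew lower. *Zim1*, a zinc finger gene beside *Peg3*, was close at P1 (1.21 and 1.28 against 1.00 and 1.56 CPM) and at P8 stood at 56.8 and 82.0 against 1.64 and 1.18, a change of -5.67 (SE 0.41, edgeR adjusted p = 8.82e-06). *Cdkn1c*, which encodes the cell cycle inhibitor p57, was at 5.33 and 4.67 against 6.43 and 8.37 CPM at P1 and at 5.82 and 5.83 against 0.668 and 1.14 at P8. *Mest*, *Peg10*, *Ppp1r9a* and *Snrpn* became more positive. *Igf2* and *Dcn* are also leptomeningeal markers.

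Of the genes of growth and metabolism, S-phase genes changed in 18 of 46 (39.1%), 17 more positive. *Pcna*, the sliding clamp of DNA polymerase, was at 145 and 133 against 131 and 123 CPM at P1 and at 84.5 and 80.3 against 140 and 142 at P8. Genes of mitosis did not follow, with 7 of 53 called (13.2%), and *Mki67* changed by 0.38 (SE 0.10, edgeR adjusted p = 2.19e-02), a call lost without any 1 of 5 libraries (0.0574 to 0.0753). Glycolytic genes grew higher in cKO in 11 of 28, with *Pkm*, pyruvate kinase, at 1100 and 1107 against 1089 and 1174 CPM and then 841 and 826 against 1443 and 1395. *Slc16a1*, the lactate carrier MCT1, grew lower (103 and 112 against 94.2 and 91.8 CPM at P1, 137 and 141 against 38.7 and 43.1 at P8). Respiratory chain subunits (8 of 74, 10.8%), ribosomal proteins (12 of 79, 15.2%) and cholesterol synthesis genes (7 of 29, 24.1%) had shares called under the 25.7% of all genes. In the unfolded protein response 17 of 34 changed, 14 more negative, the chaperones *Hyou1*, *Canx*, *Pdia4*, *Pdia6*, *Manf* and *Hsp90b1* among them. *Hmgcs1*, an early enzyme of cholesterol synthesis, was at 199 and 186 against 162 and 183 CPM at P1 and at 248 and 249 against 126 and 137 at P8.

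Motile cilium genes changed in 12 of 35 (34.3%), 10 of which grew lower in cKO. *Dnah11*, an axonemal dynein, was at 6.74 and 8.54 against 5.30 and 4.67 CPM at P1 and at 2.29 and 3.05 against 0.164 and 0.262 at P8. *Foxj1*, the transcription factor that switches motile cilia on, moved the opposite way, at 214 and 221 against 205 and 223 CPM and then 24.1 and 25.5 against 42.4 and 39.2 (change 0.74, SE 0.12, edgeR adjusted p = 1.59e-03). Clustered protocadherins, which give neural cells their surface identity, were called in 7 of 25 (28.0%, near the 25.7% of all tested genes), all of them beta members that became lower, among them *Pcdhb9* (3.82 and 3.98 against 0.450 and 0.868 CPM at P8). Their exons overlap other transcripts of the cluster, and the sources used here do not say how reads were split among these, so the values of single members are uncertain. Integrins changed in 15 of 20; *Itga3*, a laminin receptor subunit, was close at P1 (254 and 243 against 264 and 277 CPM) and at 24.8 and 27.2 against 140 and 139 at P8, and *Itgb1*, the common beta chain, reversed to lower (897 and 906 against 1182 and 1209, then 2645 and 2675 against 2082 and 2094).

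A P1 difference that faded by P8 was the least common of the 3 kinds. *Slc1a6*, the glutamate transporter EAAT4 (ENSMUSG00000005357, chr10:78780496-78814765), was at 1.24 and 0.590 CPM in P1 WT, 6.80 and 8.99 in P1 cKO, 40.7 and 41.4 in P8 WT and 31.9 and 28.3 in P8 cKO, and its difference went from 3.14 to -0.45 (change -3.59, SE 0.36, edgeR adjusted p = 7.48e-05). *Bcat1*, the cytosolic branched-chain aminotransferase, went from 1.66 and 1.31 against 11.8 and 11.8 CPM to 48.8 and 46.5 against 38.2 and 38.3. The transcription factors *Snai1* (0.603 and 0.799 against 4.08 and 2.58, then 24.0 and 24.5 against 15.0 and 13.9 CPM) and *Lmx1b* (0.369 and 0.799 against 1.82 and 3.37, then 12.1 and 11.4 against 7.54 and 7.14) and the hyaluronan-binding *Itih2* (0 and 0.147 against 5.90 and 6.32, then 27.0 and 27.9 against 14.4 and 16.7) completed the 5 largest of that kind. At P8 the WT libraries stood above the cKO libraries in each of them, without passing the test. At P6 *Slc1a6*, *Bcat1* and *Snai1* were lower in cKO, *Slc1a6* at 48.4 and 47.5 against 13.2 and 14.6 CPM.

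Of the 96 genes with a P1 deficit that shrank, *Vgf*, a secreted neuropeptide precursor (ENSMUSG00000037428, chr5:137026392-137033351), had the most reads among the 5 largest: 264 and 270 CPM in P1 WT, 111 and 111 in P1 cKO, 9.05 and 8.51 in P8 WT and 9.94 and 15.1 in P8 cKO. Both genotypes had far less of the transcript at P8, and the difference went from -1.27 to 0.51 (change 1.78, SE 0.27, edgeR adjusted p = 1.10e-03). *Slco4a1*, an organic anion transporter, rose in both genotypes and closed its gap, from 12.3 and 13.1 against 6.89 and 7.57 CPM to 27.2 and 34.7 against 41.4 and 35.1. *Itgb4*, the integrin of hemidesmosomes, and *Afap1l1*, an actin-associated adaptor, changed by 1.22 (SE 0.22) and 1.92 (SE 0.39; edgeR adjusted p = 3.24e-03 and 5.74e-03). *Bbx*, an HMG-box factor, lost its call without P1 cKO replicate 2 (edgeR adjusted p = 0.0554).

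Genes of the chromatin machinery around RACK7 were called in shares below the 25.7% of all tested genes, though these lists are short. Of 17 genes for RACK7 and its partners 3 changed (17.6%): *Hdac2* and *Kdm5b* grew lower and the P1 excess of *Zfp532* shrank. *Hdac2*, a histone deacetylase, was at 74.1 and 74.1 against 85.3 and 81.4 CPM at P1 and at 116 and 116 against 84.6 and 83.1 at P8 (change -0.64, SE 0.07, edgeR adjusted p = 1.95e-04). *Zfp532* went from 22.6 and 19.3 against 44.0 and 51.6 CPM to 42.8 and 34.8 against 30.7 and 28.6. Of 30 Polycomb subunits and their antagonists 5 changed (16.7%), *Ezh2*, *Pcgf3*, *Phc1* and *Kdm6b* more negative and *Cbx7* more positive. *Kdm6b*, which removes the Polycomb mark, reversed from 37.6 and 36.3 against 50.2 and 45.6 CPM to 66.8 and 70.0 against 52.7 and 50.9 (change -0.78, SE 0.11, edgeR adjusted p = 7.10e-04). *Brd2* and *Rbbp4*, the members with the most reads, were not called (0.15, SE 0.06, and 0.12, SE 0.05; edgeR adjusted p = 0.129 and 0.126).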

How the data were processed

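The authors mapped the reads of captured mRNA with HISAT2 to GRCm38 (mm10, per the submitters' processing notes) and deposited raw read counts per gene; the counter, annotation and strand setting could not be learned from the sources used here, so reads of overlapping and antisense genes may be mixed. Gene positions are those of GENCODE vM21. Totals were 54413504 to 89183250 counts per library, and replicates differed by more than sampling noise (chi-square per degree of freedom 30.5 to 47.1).

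Low counts were filtered with filterByExpr, scaled by TMM and tested with the edgeR quasi-likelihood test (edgeR 4.0.16, R 4.3.3) in 1 fit of 6 groups, with Benjamini-Hochberg adjustment over 17938 genes and a threshold of 0.05. An SE is the log2 difference divided by the square root of its F value. A median over genes includes fitted values of 487 genes with a group at 0. Scripts were tested on simulated data. The smallest two-sided exact permutation p for 2 libraries against 2 is 0.333, so single values have no test of their own. The 48 functional and 11 marker lists, like the comparison itself, were chosen with earlier results of these data known; 228 of their 1647 entries were not analysed here.

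Named genes were called, averaged at least 5 CPM and had 10 counts in each of the 4 groups: the 5 largest changes in each directional class whose libraries did not overlap on the days that the class uses (both for reversed, P8 for grown and P1 for shrunken effects). Each functional list gave its 2 largest called changes of at least 1 CPM and its most abundant gene, and each marker list its 3 most abundant and its largest; *Zmynd8* and called Wnt ligands were added. Other genes are named only as members of a class within a list, and the choice among them was made after their values were seen. Promoter sequences came from RefSeq (GRCm38.p6) and matched 136 of the 191 named genes. Alternatives were DESeq2 1.42.0, other libraries, filters, scalings and fold limits, GC and length correction, a replicate block and leaving out each library. A few list members are not reported by name here.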

Additional observations from a re-analysis of the deposited data

Results flagged for a closer look

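By a test of the difference itself, 4606 genes had a genotype effect that differed between P1 and P8, 2511 of them with a more positive and 2095 with a more negative effect at P8. Among these, 425 genes went from higher to lower in the libraries labelled cKO and 249 from lower to higher, with each day's own difference past the test. Groups of 2 libraries are too small for a check of single outlying libraries.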

How the results depend on the processing

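With 2 libraries a group, the count of calls moved with the method while directions held: across 21 alternatives it ran from 3220 with a fold of at least 1.5 to 6249 in a DESeq2 fit without the P6 libraries, against 4606, and no named gene changed sign past the threshold. Of 168 named genes called, 137 held in every alternative and 31 lost their call in at least 1; 12 others were called only in an alternative. DESeq2 on all 12 libraries gave 1093 reversed genes (464 to higher), and 592 that shrank (378 higher, 214 lower). Without the P6 libraries DESeq2 gave 1288 reversed (577 to higher, 711 to lower) and 645 that shrank (406 higher, 239 lower). A fold of at least 1.5 left 1665 genes with a more positive effect, 1318 that grew higher and 60 that shrank lower. When each library was left out in turn, reversed genes ranged from 416 to 708, those to higher from 102 to 272 and those that shrank lower from 45 to 101. Without P1 WT replicate 1 or 2, reversed genes numbered 420 and 423 (117 and 102 to higher) and those that shrank lower 45 and 45. Without P1 cKO replicate 1 or 2 the reversed numbered 416 and 441 (108 and 134 to higher), and without P8 cKO replicate 1 or 2 those that shrank lower numbered 61 and 58. Such fits test fewer libraries; the other causes were not tested.

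Deviations of same-numbered libraries had small correlations (-0.0448 to 0.0743 over 15 pairs of groups). Such values cannot show whether the numbers pair the samples, since a litter or batch may be shared without a large correlation. A fit with the replicate number as a block gave 4372 calls, against 4606 without it. Among named genes only *Rpl4* lost its call there (edgeR adjusted p = 0.0551).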

Other observations

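Gene groups not described above split by direction. Of 19 prostaglandin genes 11 changed; *Ptgdr*, the prostaglandin D2 receptor, had no read in P1 WT and 79 in P1 cKO (at least 32.1-fold higher over a floor of 3 counts) and stood at 48.6 and 52.8 CPM in P8 WT against 0 and 0.166 in P8 cKO, while *Hpgds*, which makes the D2 ligand, reversed to higher (113 and 115 against 91.9 and 92.3 CPM, then 123 and 123 against 215 and 213). The receptor and the enzyme so moved in opposite directions. Of 18 smooth muscle genes 8 changed: *Actg2*, an enteric actin, went from 0.536 and 0.786 against 48.5 and 47.2 CPM to 179 and 170 against 60.6 and 56.8, *Myh11*, smooth muscle myosin, grew higher in cKO (0.622 and 1.58 against 19.9 and 20.7 CPM at P8), and *Acta2* was not called in the fit of all 12 libraries (-0.21, SE 0.08, edgeR adjusted p = 0.0794) but was in 7 alternatives, among them edgeR without the P6 libraries (edgeR adjusted p = 0.000398). Of 35 potassium channel subunits 19 changed, 11 more positive. Notch genes changed in 6 of 16 (37.5%), 4 more positive and 2 more negative. *Jag1*, a ligand, was at 208 and 198 against 93.3 and 90.5 CPM at P8.

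Of 21 metallothionein and NRF2 target genes 10 changed, 8 more positive, and of 25 immediate-early factors 13, 6 more positive and 7 more negative. *Egr1* reversed to lower (43.9 and 45.1 against 92.8 and 90.3 CPM, then 266 and 259 against 187 and 200), and *Atf3* grew higher (44.4 and 43.4 against 37.4 and 37.6, then 14.6 and 16 against 55.4 and 59.2). Of 28 cell cycle inhibitors, D cyclins and p53 targets 12 changed, of 12 neuropeptide genes 6, and of 16 GABA and glutamate receptor genes 4, the last near the 25.7% of all tested genes.

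Markers of other cells changed in part. The lists are short, and the share of all tested genes called was 25.7%. Of 10 mural markers 6 were called (60.0%), 4 of them more negative. Of 10 endothelial markers 4 were called (40.0%), 3 more negative, and of 12 oligodendrocyte lineage markers 8 (66.7%), 7 more negative. Of 9 ependymal and choroid plexus markers 4 were called (44.4%), 2 more negative. Of 9 Schwann and neural crest markers 4 were called (44.4%), 3 more negative, and of 5 neuronal markers 2 (40.0%), 1 more negative. *Cdh5*, VE-cadherin of endothelium, reversed to lower (1.54 and 1.72 against 13.5 and 13.6 CPM, then 125 and 141 against 10.1 and 9.59), and *Cldn11*, a tight junction protein of oligodendrocytes and arachnoid barrier cells, had 36.6 and 38.6 CPM in P8 WT against 0.109 and 0 in P8 cKO. *Gap43*, a growth cone protein, was at 26.6 and 26.3 against 15.5 and 14.9 CPM at P1 and at 87.7 and 92.1 against 11.2 and 10.8 at P8.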
